A study of Homo sapiens
Mus musculus with 24 samples.

Results

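The matrix metalloproteinases (MMP), the ADAMTS proteases and their inhibitors, the TIMPs, were followed in xenograft tumors whose cancer cells are human and whose host cells are murine. Members were taken by gene symbol, as MMP followed by a number and at most 1 letter, ADAMTS followed by a number, and TIMP followed by a digit, in upper or lower case. This gave 69 of 35547 rows over both tables. The murine table held 36 members among 16667 genes, of which 18 were MMPs, 14 ADAMTS genes and 4 TIMPs. The human table held 33 members among 18880 genes, with 14 MMPs, 16 ADAMTS genes and 3 TIMPs. The rule itself uses symbols and no measured value.

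MMPs are zinc-dependent endopeptidases that cut collagens, gelatins, elastin and other proteins of the extracellular matrix, and most are secreted as inactive precursors or sit in the plasma membrane. ADAMTS proteases are secreted enzymes with thrombospondin repeats that process procollagens, aggrecan, versican and fibrillin-associated proteins. TIMPs bind the active site of MMPs and block it, and TIMP3 blocks ADAMTS proteases too. In tumors both the cancer cells and the surrounding fibroblasts and leukocytes are known sources of all 3 families.

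The series asked what moringa seed extract concentrate (MC) does to a triple-negative breast tumor, alone and together with chemotherapy, in obese mice. MDA-MB-231 cells, a human triple-negative breast cancer line, were placed subcutaneously at the neck base in a mixture of Matrigel and collagen I in female Rag1-null mice of the B6 background at 14 weeks of age, after 10 weeks on diet. Rag1-null mice lack mature T and B cells and keep their myeloid cells, which limits them as a model of the host immune response. Mice with tumors of about 200 mm3 were randomized, and 24 tumors were sequenced, each from a different mouse.

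All groups except Lean ate a high-fat diet. CTRL (4 tumors) received saline weekly for 4 weeks. Chemo (5 tumors) received doxorubicin at 2 mg/kg and cyclophosphamide at 100 mg/kg by weekly intraperitoneal injection. MC (5 tumors) ate a diet with 0.6% MC, and MC + Chemo (6 tumors) received both. Lean (4 tumors) ate a lean diet with no intervention. Libraries were QuantSeq 3′ libraries read for 50 bases, and RNA of the tumors Lean 3, MC 41 and MC 42 went through an extra column cleanup.

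Summed counts per library were 3664056 to 9892470 for the murine table and 7796231 to 17621273 for the human table, and the human share of all counts ran from 47.8% in MC 41 to 74.0%. Human cell identity was present in each tumor: all 12 epithelial and mesenchymal markers of the line were above 0 in all 24 libraries, with a summed normalized count of 73786 to 110964. Among host markers, all 12 macrophage genes (12258 to 39690 summed) and all 12 fibroblast genes (55065 to 163691) were above 0 throughout, as were the endothelial (759 to 6292) and pericyte and smooth muscle genes (2553 to 11916). Neutrophil genes summed to 416 to 9084, mast cell genes to 145 to 1541, keratinocyte genes to 320.4 to 996 and chondrocyte and bone genes to 593 to 1759. In a few libraries markers of the surrounding tissue were high: skeletal muscle genes summed to 150 to 314 in CTRL and reached 39516 in MC 41, 9657 in MC 48, 41657 in MC + Chemo 5 and 67239 in MC + Chemo 43, and adipocyte genes reached 88609 in MC 41 and 111907 in MC + Chemo 52 against at most 8632 in CTRL. CTRL 17 stood apart among controls, with the highest fibroblast sum of the series and the lowest endothelial sum. In bulk tumor RNA, fewer cells of a type and less RNA per cell cannot be told apart.

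Levels were compared first, as CPM, counts scaled to each genome's own library total. Reads come from transcript ends, so no division by length was made, and a CPM is here a share of end reads. The host gave the larger share of its RNA to these genes. Summed over its members, the murine table gave 5345 CPM at the median (1940 to 7087 over 24 tumors) and the human members gave 1382 CPM (1148 to 1933), a ratio of 3.89 at the median, with the host sum higher in 24 of 24 tumors. The ratio was 5.53 for MMPs (1.71 to 13.8), 4.00 for ADAMTS genes (1.76 to 6.39) and 2.56 for TIMPs (1.26 to 5.98). These sums run over unlike sets, with 18 murine and 14 human MMPs, 14 and 16 ADAMTS genes, and 4 and 3 TIMPs. Timp3, with 33.4% of murine TIMP reads at the median, had no named human row. Over the whole family set its median was 4.05 in CTRL, 4.27 in Chemo, 3.53 in MC, 3.11 for MC + Chemo and 3.89 for Lean, and the group ranges overlapped. By family, the group medians in the order CTRL, Chemo, MC, MC + Chemo and Lean were 7.55, 6.30, 5.33, 6.12 and 5.02 for MMPs, 3.96, 4.19, 3.97, 3.89 and 4.48 for ADAMTS genes, and 2.20, 3.70, 2.63, 2.02 and 3.10 for TIMPs, again with overlapping ranges.

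Of the members, 29 had a namesake in the other table. The murine namesake had the higher median CPM in 22 of these 29, and in 14 of them it was higher in every tumor. The human gene had the higher median in 7 (ADAMTS6, ADAMTS9, ADAMTS12, ADAMTS14, MMP15, MMP16 and TIMP1), and ADAMTS6 and TIMP1 were higher on the human side in every tumor. Among all 11278 symbols shared by the tables, 49.3% had the higher median in the murine table. MMP1, MMP7, ADAMTS3 and ADAMTS20 had a named row in the human table alone, and Mmp8, Mmp12, Mmp17, Mmp23, Mmp27, Mmp28 and Timp3 in the murine table alone. No symbol was given for 5259 human and 2991 murine rows. A member in such a row would be missed, so a missing name does not show that the gene was absent. In the reference annotation of the human genome (RefSeq, GRCh38.p14), 9 MMP genes lie next to each other (MMP7, MMP20, MMP27, MMP8, MMP10, MMP1, MMP3, MMP12 and MMP13), and 5 of them were members in the human table.

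**Figure D1:**
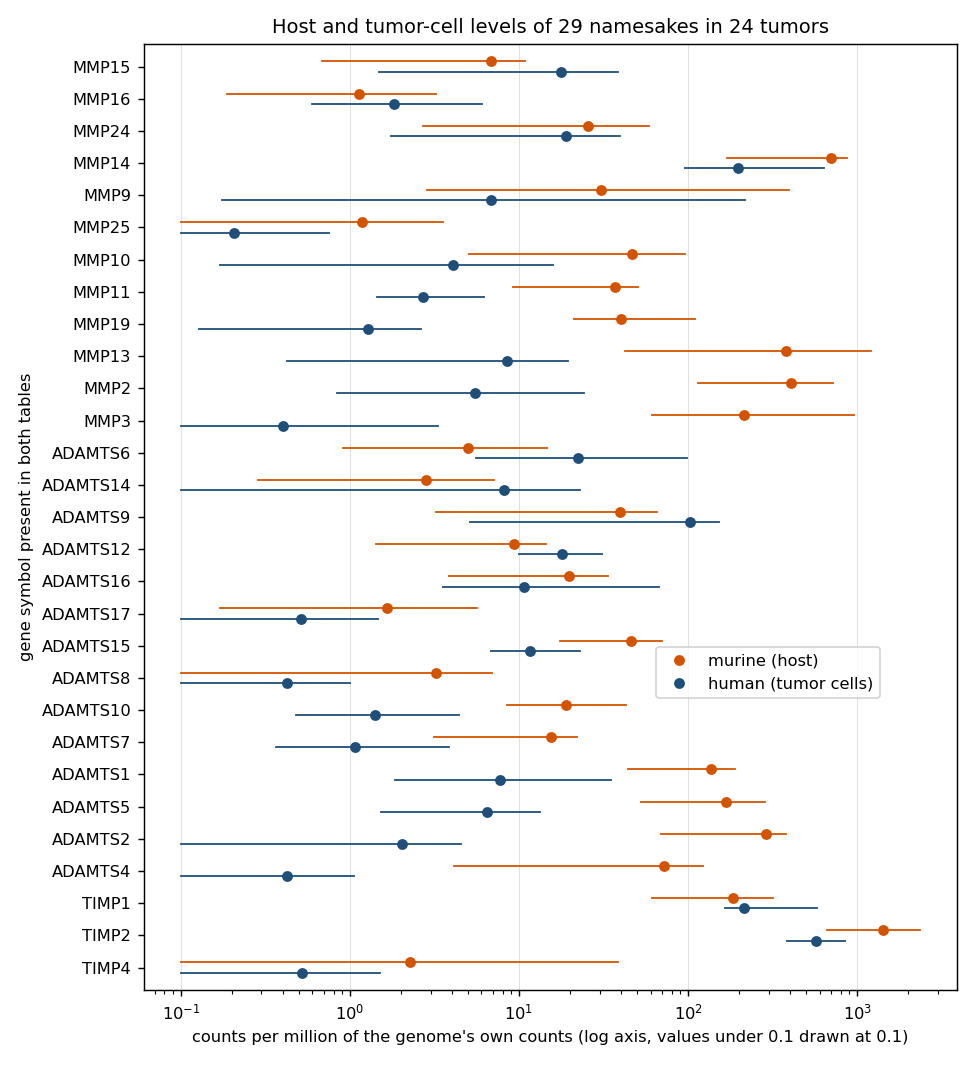
CPM of 29 MMP, ADAMTS and TIMP genes in the murine (host) and human (tumor) tables, on a log axis. Points are medians over 24 tumors and lines run from the lowest to the highest tumor, with values under 0.1 drawn at 0.1. The host point lies to the right of the tumor point for 22 of 29 genes.

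MMP13, MMP2 and MMP3 were higher in the host than in the tumor in 24 of 24 tumors. MMP13, a collagenase, had median levels of 8.50 CPM in the tumor and 382 CPM in the host. MMP2, the gelatinase that cuts denatured collagen and basement membrane collagen, had 5.47 and 406 CPM. MMP3 (stromelysin-1), which also activates other precursors, was close to 0 in the human table (0.405 CPM) against 213 CPM in the murine table, and human reads made up 0 to 1.40% of its reads in any tumor. MMP9, the other gelatinase, differed between tumors more than between genomes: human levels ran from 0.175 to 216 CPM and murine levels from 2.84 to 397 CPM, and the human level was the higher in 6 of 24 tumors.

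Membrane-bound MMPs differed in which genome had the higher level. MMP14, the membrane protease that activates the MMP2 precursor, was the leading MMP of both genomes, with 197 CPM in the tumor and 704 CPM in the host, and it made up 56.2% of human and 31.8% of murine MMP reads at the median. Human MMP7 (matrilysin, a small secreted enzyme) followed with 13.5% of human MMP reads, and murine Mmp13, Mmp2 and Mmp3 with 19.5%, 18.4% and 9.70% of murine MMP reads. MMP15, another membrane-type enzyme, was higher in the tumor (17.7 against 6.84 CPM, human higher in 22 of 24 tumors).

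The ADAMTS genes divided between the compartments. ADAMTS2, which removes the N-propeptide of fibrillar procollagens, had 289 CPM in the host and 2.02 CPM in the tumor, and Adamts2, Adamts5 and Adamts1 together held the largest murine ADAMTS shares (34.3%, 20.1% and 16.8%). The aggrecanases ADAMTS4 (0.425 CPM tumor, 72.3 CPM host) and ADAMTS5 (6.43 and 168 CPM) and the versican-cleaving ADAMTS1 (7.72 and 137 CPM) were lower in the tumor than in the host in 24 of 24 tumors. ADAMTS9, another versican-cleaving protease, was the leading human ADAMTS gene with 102 CPM against 39.6 CPM in the host, 53.8% of human ADAMTS reads at the median and between 2.09% and 65.5% in single tumors. ADAMTS6, a protease that acts on fibrillin-rich matrix, came next with 10.1%, and its 22.5 CPM in the tumor compared with 4.98 CPM in the host.

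By mean read count, inhibitors led in both genomes: TIMP2 and TIMP1 among human members, and Timp2 and Timp3 among murine members. TIMP2, which inhibits MMPs and also takes part in MMP2 activation by MMP14, had 571 CPM in the tumor and 1415 CPM in the host, 72.1% and 59.5% of the TIMP reads. TIMP1, a secreted inhibitor of most soluble MMPs, had 213 CPM in the tumor and 184 CPM in the host, with the tumor level higher in 24 of 24 tumors, and in 23 of 24 when both tables were scaled by TMM, a scaling under which human ADAMTS12 was higher in 24 of 24 (23 without it). Timp3, which is bound to matrix and blocks ADAMTS proteases too, held 33.4% of murine TIMP reads and Timp1 7.69%. TIMP4 was low in both (0.522 and 2.26 CPM).

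Among member namesakes with at least 500 reads on each side, MMP24 kept the most constant ratio of counts. Namesakes with fewer reads were not examined in this way. For MMP24, a membrane-type MMP known from neural tissue, the murine count was between 0.662 and 0.889 of the human count in each of the 24 libraries, while the total murine count was between 0.352 and 1.09 of the total human count. Its counts in human and murine order were 20 and 16 in CTRL 17, 27 and 24 in CTRL 44, 42 and 28 in MC 6, and 497 and 366 in MC + Chemo 52. The spread of the log2 ratio (SD 0.111) was below the 0.212 that counting alone gives, the chi-square per degree of freedom was 0.358, and this ranked 65 of 9225 namesake pairs with at least 500 reads on each side, where the median was 9.05. ADAMTS6 (3.35, ratios of 0.0450 to 0.259), ADAMTS5 (5.81) and ADAMTS12 (8.74) were also below this median chi-square. MMP13 had ratios of 4.84 to 456. How reads that match both genomes were assigned is not given in the sources used here. Values of murine Mmp24 are therefore not read as a host measurement separate from human MMP24. The part of shared reads was not tested for this or any other namesake.

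**Figure D2:**
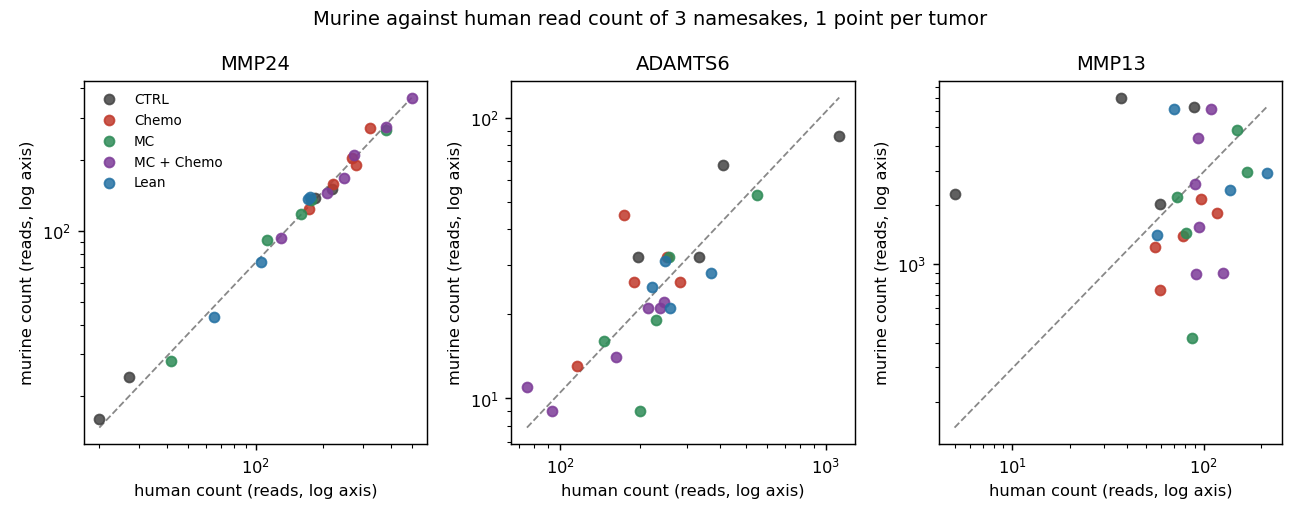
Murine against human read counts of MMP24, ADAMTS6 and MMP13, 1 point per tumor (24 tumors), with a dashed line at the ratio of the summed counts. MMP24 points lie along the line (ratios of 0.662 to 0.889), whereas MMP13 points scatter (4.84 to 456).

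Treatment groups were then compared with CTRL in each genome by edgeR's quasi-likelihood test over all genes that passed a filter on low counts, which 35 of 36 murine and 25 of 33 human members passed (26 human members in the fit with Lean). A gene was called at a Benjamini-Hochberg adjusted p under 0.05, a mean normalized count above 30 and a fold change above 1.5. Chemo, MC and MC + Chemo are all set against the same 4 CTRL tumors, so their values stand side by side and are not independent. In the murine table no member was called in Chemo, MC, MC + Chemo or Lean, and neither was any other murine gene (0% called in each). Murine members with an unadjusted edgeR p under 0.05 numbered 4 of 35 in Chemo (4.53% of all genes), 5 in MC (11.8%), 5 for MC + Chemo (12.4%) and 1 for Lean (3.11%), and DESeq2 called 0 members in Chemo (0.0841% of genes), MC (1.41%) and Lean (0.00601%) and 1 in MC + Chemo (0.709%). CTRL and the other group did not overlap for 0 murine members in Chemo (1.39% of genes), 0 in MC (2.09%), 2 for MC + Chemo (2.54%) and 0 for Lean (2.93%). The 2 were Mmp24 and Adamts6, and the DESeq2 call was Mmp24. Neither gene is read here as a host measurement separate from its human namesake.

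Among human members 1 of 25 was called, ADAMTS6 in MC + Chemo, where 1.6% of all genes were called (263 of 16434). None was called in Chemo, MC or Lean, in which 0% of genes were called. The unadjusted edgeR counts were 8 of 25 in Chemo (18.2% of all genes; 3 higher against 7.84% and 5 lower against 10.4%), 3 in MC (10.7%), 7 for MC + Chemo (22.7%; 4 higher against 9.19% and 3 lower against 13.5%) and 2 of 26 for Lean (7.08%). Non-overlapping human members numbered 0 in Chemo (3.24%), 1 in MC (1.47%), 2 for MC + Chemo (5.26%) and 0 for Lean (2.21%). DESeq2 called 3 members in MC + Chemo (4.47% of genes) and 0 in Chemo (2.65%), MC (0.0632%) and Lean (0.0053%). The median log2 fold change of the tested members, beside that of all genes, was 0.12 and -0.0021 in murine Chemo, 0.045 and 0.00053 in murine MC, -0.079 and 0.011 in murine MC + Chemo, -0.25 and -0.019 in human Chemo, 0.025 and -0.022 in human MC, and -0.022 and -0.024 in human MC + Chemo.

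**Figure D3:**
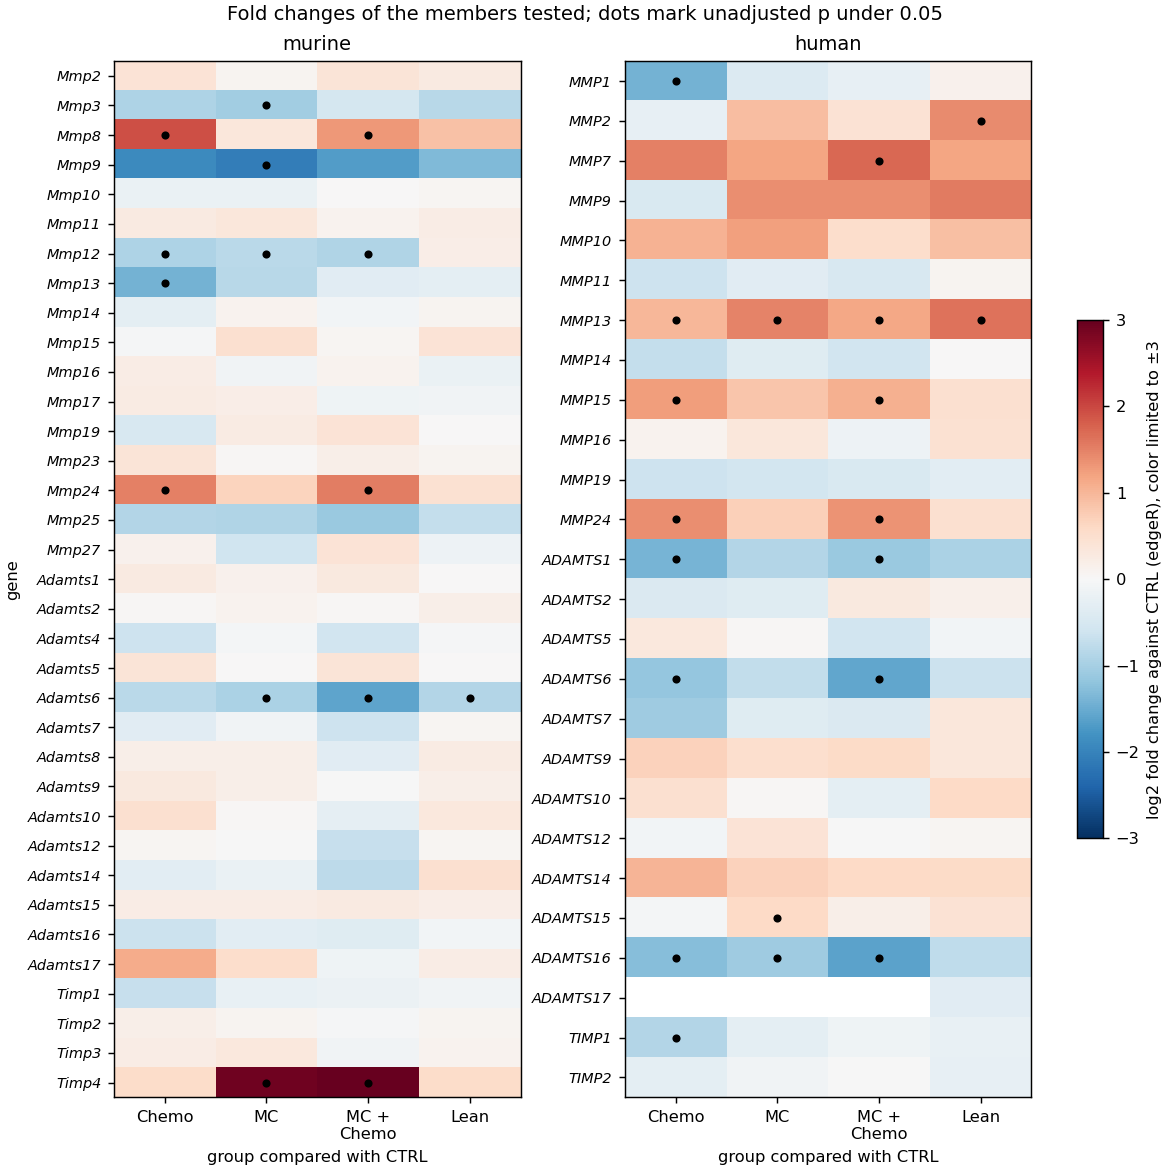
Log2 fold changes against CTRL of the tested MMP, ADAMTS and TIMP genes, murine and human, for Chemo, MC, MC + Chemo and Lean (color scale limited to ±3, blank where a gene was not tested). Dots mark an unadjusted edgeR p under 0.05, and human ADAMTS6 in MC + Chemo (-1.57) was the value that passed all 3 criteria.

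In the values that follow, libraries stand in the order CTRL 17, 31, 44 and 70, Chemo 19, 30, 33, 34 and 67, MC 6, 41, 42, 48 and 59, and Lean 3, 21, 24 and 54. A normalized count is the deposited value, a count divided by the size factor of its library. That factor was taken as the library's raw total over its normalized total.

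ADAMTS6 fell in MC + Chemo in the human table. Its normalized counts were 1025, 212, 287 and 289 (CTRL), 303, 129.9, 214, 195 and 181 (Chemo) and 348, 235, 333, 237 and 199 (MC). The Lean tumors had 248, 247, 373 and 305, and the MC + Chemo tumors 62.7 to 210.3 with a median of 179.7. The 6 MC + Chemo tumors were below the 4 CTRL tumors (non-overlapping for 2 human members here, against 5.26% of genes), 3 of 5 Chemo tumors were, and CTRL 17 was far above the other controls. Log2 fold changes were -1.57 ± 0.38 (SE, edgeR adjusted p = 0.0408) in MC + Chemo, -1.16 ± 0.40 (0.145) in Chemo, -0.75 ± 0.39 (0.494) in MC and -0.63 ± 0.40 (0.760) in Lean. The exact two-sided permutation test over tumors gave p = 0.00476 for MC + Chemo, the smallest it can give, and p = 0.0794 for Chemo. ADAMTS6 was named for its edgeR p in both comparisons, so these permutation p are no independent check. Without CTRL 17 the MC + Chemo value was -0.78 and the edgeR adjusted p 0.222, and the Chemo value was -0.38 (edgeR adjusted p 0.725) without CTRL 17 and -1.39 (0.0366) without CTRL 31. The call in MC + Chemo was also lost without CTRL 44 or without any of MC + Chemo 5, 43, 47, 50 and 52.

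Murine Adamts6, named after its values were seen because its namesake was called, was low (mean normalized count 28.2, under the minimum of 30). It had 82.6, 30.9, 41.01 and 42.7 in CTRL, and 7.92 to 27.0 with a median of 16.9 in MC + Chemo, also without overlap (2.54% of murine genes). Its log2 fold change in MC + Chemo was -1.59 ± 0.41 (SE, edgeR adjusted p = 0.170). Its read counts were 0.0450 to 0.259 of the human ADAMTS6 counts, and both genes had their highest count in CTRL 17 (86 and 1125). The part of reads shared with the human gene was not tested, so murine Adamts6 is not read as a separate host measurement.

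ADAMTS16, a protease linked to kidney and gonad development, had human normalized counts of 698, 105, 73.4 and 125 (CTRL), 175, 79.5, 76.9, 77.2 and 110 (Chemo) and 126, 106, 138, 105 and 127 (MC). The range over MC + Chemo was 38.2 to 120.2 with a median of 88.4, and Lean had 142, 131, 182 and 139. Apart from CTRL 17 the groups overlapped. Its log2 fold change in MC + Chemo was -1.61 ± 0.48 (SE, edgeR adjusted p = 0.0674, exact permutation p = 0.152), and without CTRL 17 it was -0.31. In MC it was -1.06 ± 0.50 (edgeR adjusted p = 0.456) and 0.24 without CTRL 17. DESeq2 called ADAMTS16 in MC + Chemo (adjusted p = 0.0232).

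Human MMP13 was higher at the median in each group than in CTRL, without passing the edgeR criteria. Its normalized counts were 33.7, 63.9, 4.32 and 62.4 (CTRL), 60.2, 66.1, 88.2, 131 and 69.3 (Chemo) and 109.6, 102, 91.0, 173 and 99.6 (MC). The MC + Chemo values were 70.5 to 129 with a median of 89.0, and those of Lean 204, 63.6, 70.4 and 168. Each of the 5 MC and 6 MC + Chemo tumors was above all 4 CTRL tumors, and so were 4 of 5 Chemo and 3 of 4 Lean tumors. In MC this was the only non-overlapping human member among those tested, against 1.47% of genes. Log2 fold changes were 1.00 ± 0.43 in Chemo, 1.48 ± 0.43 in MC, 1.16 ± 0.42 for MC + Chemo and 1.62 ± 0.47 for Lean (SE), with edgeR adjusted p of 0.222, 0.406, 0.109 and 0.685. Exact permutation p were 0.0317, 0.00794, 0.00476 and 0.0571, and those of MC and MC + Chemo are the smallest the tests can give. A smallest p restates that the groups do not overlap. MMP13 was named for a low edgeR p in MC, MC + Chemo and Lean, so these permutation p are no independent check. DESeq2 called it in MC + Chemo (adjusted p = 0.0441). CTRL 17 and CTRL 44 had the lowest values, and without both the MC value was 0.86 and the MC + Chemo value 0.54.

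Murine Mmp13 had other values. Its normalized counts were 6776, 1963, 2922 and 3981 (CTRL), 1467, 861, 1403, 1491 and 2050.2 (Chemo) and 2295, 382, 2867, 2525 and 2847 (MC). The MC + Chemo libraries ran from 752 to 8459 with a median of 2028, and Lean libraries had 2433, 1316, 5927 and 2996. In Chemo 4 of 5 tumors were below all CTRL tumors and the log2 fold change was -1.43 ± 0.61 (SE, edgeR adjusted p = 1.00, exact permutation p = 0.0159). The other log2 fold changes were -0.83 in MC, -0.35 for MC + Chemo and -0.29 for Lean, and the lowest MC library, MC 41, was among those rich in muscle and adipocyte transcripts, whose part in the value was not tested.

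MMP24 and its namesake had their lowest CTRL values in CTRL 17 and CTRL 44. Human MMP24 had 18.2, 199, 23.3 and 153 (CTRL), 288, 249, 365, 194 and 200 (Chemo) and 56.8, 188, 231, 181 and 153 (MC). The Lean tumors had 163, 195, 65.4 and 129, and the MC + Chemo tumors 132 to 335 with a median of 262. In Chemo 4 of 5 and in MC + Chemo 5 of 6 tumors were above all CTRL tumors. The log2 fold changes were 1.39 ± 0.52 in Chemo, 0.72 in MC and 1.35 ± 0.50 in MC + Chemo (SE, edgeR adjusted p = 0.172 in Chemo and 0.123 in MC + Chemo). Murine Mmp24 counts were 15.4, 132, 30.8 and 94.3 (CTRL), 245, 184, 273, 101 and 179.6 (Chemo) and 44.4, 107, 158, 116 and 118 (MC). The range over MC + Chemo was 141 to 322 with a median of 182, and Lean had 114, 130.2, 41.2 and 92.5. All 6 MC + Chemo tumors were above CTRL, the log2 fold changes were 1.51 ± 0.46 in Chemo and 1.54 ± 0.45 in MC + Chemo (SE, edgeR adjusted p = 0.866 and 0.225), and the exact permutation p of MC + Chemo was 0.00476. DESeq2 called murine Mmp24 in MC + Chemo (adjusted p = 0.0380). Without CTRL 17 and CTRL 44 the murine value was 0.79 in Chemo and 0.81 in MC + Chemo, and the ratio of its reads to human MMP24 reads given above holds for each of these libraries.

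**Figure D4:**
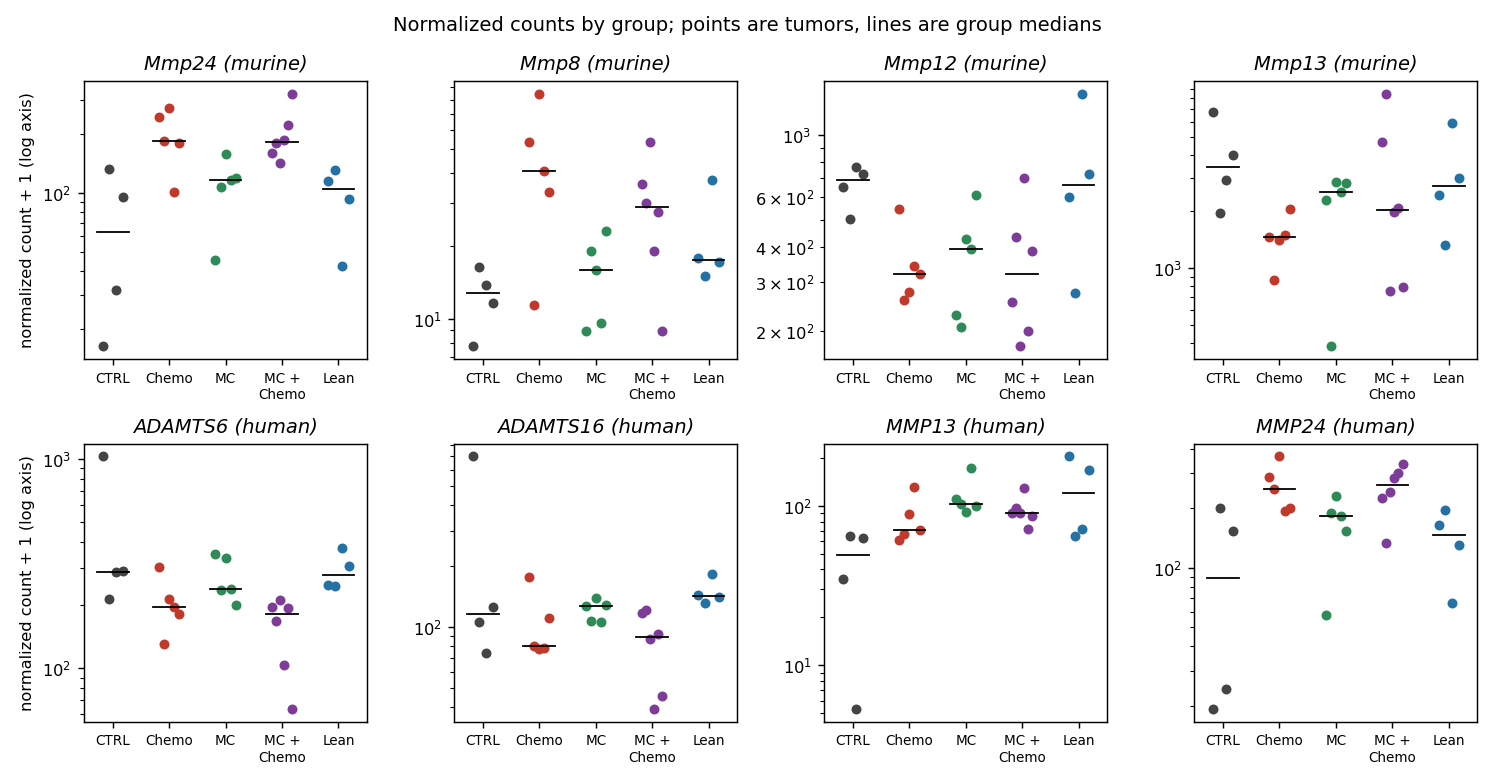
Normalized count + 1 on a log axis for murine Mmp24, Mmp8, Mmp12 and Mmp13 and human ADAMTS6, ADAMTS16, MMP13 and MMP24 in CTRL (4 tumors), Chemo (5), MC (5), MC + Chemo (6) and Lean (4). Points are tumors and lines are group medians. The single high CTRL point of ADAMTS6 (1025) and of ADAMTS16 (698) is CTRL 17.

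Mmp8, the collagenase stored in neutrophil granules, was low throughout (mean normalized count 25.2). It had 6.72, 15.4, 12.8 and 10.7 (CTRL), 52.8, 10.5, 83.7, 39.8 and 32.3 (Chemo) and 7.94, 18.1, 14.9, 8.61 and 22.0 (MC). The MC + Chemo values were 7.92 to 52.4 with a median of 27.8, and those of Lean 16.8, 14.0, 36.4 and 16.3. In Chemo 4 of 5 and in MC + Chemo 5 of 6 tumors were above all CTRL tumors. The log2 fold changes were 1.94 ± 0.53 in Chemo, 0.34 in MC and 1.30 ± 0.51 in MC + Chemo (SE, edgeR adjusted p = 0.741 in Chemo and 0.311 in MC + Chemo). Neutrophil markers, of which 11 of 12 were measured and 5 were at 0 in some library, summed to 416 to 2438 in CTRL, 1199 to 9084 in Chemo, 1338 to 2377 in MC and 615 to 6970 in MC + Chemo, and their part in the Mmp8 values was not tested.

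Mmp12, the macrophage elastase, had 652, 503, 768 and 723 (CTRL), 545, 258, 274, 339.9 and 319 (Chemo) and 229, 206, 427, 393 and 609 (MC). The MC + Chemo libraries ran from 176 to 700.4 with a median of 319, and Lean libraries had 599.8, 272, 1402 and 725. In Chemo 4 of 5, in MC 4 of 5 and in MC + Chemo 5 of 6 tumors were below all CTRL tumors. Log2 fold changes were -0.93 ± 0.36 in Chemo, -0.81 ± 0.36 in MC, -0.91 ± 0.34 for MC + Chemo and 0.19 for Lean (SE), with edgeR adjusted p of 1.00, 0.379 and 0.296 in the treatments. Exact permutation p were 0.0238, 0.0397 and 0.0286. The 12 macrophage markers summed to 26706 to 34326 in CTRL, 25145 to 39690 in Chemo, 12258 to 36055 in MC and 28341 to 38037 in MC + Chemo, ranges that overlapped CTRL in each group, and their part was not tested.

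Some host proteases were set by 1 control tumor. Mmp3 had 5407, 1078, 425 and 1099 in CTRL, and Mmp9 2238, 115, 80.7 and 258, in both cases highest in CTRL 17. Mmp9 log2 fold changes were -1.90 in Chemo, -2.06 ± 0.93 in MC (SE, edgeR adjusted p = 0.385) and -1.68 in MC + Chemo, and 0.23, 0.063 and 0.45 without CTRL 17. For Mmp3 they were -0.93, -1.05 ± 0.48 (edgeR adjusted p = 0.393) and -0.53, and 0.28, 0.14 and 0.67 without it. CTRL 17 also had the highest fibroblast marker sum, whose part was not tested. Human MMP9 likewise ranged within groups, from 1.82 to 578 in CTRL, 24.7 to 435 in Chemo and 36.0 to 2296 in MC + Chemo, and its log2 fold changes were -0.47 in Chemo, 1.39 in MC and 1.39 in MC + Chemo.

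Human MMP7 had normalized counts of 0, 365, 31.1 and 437 (CTRL), 582, 559, 936, 637 and 305 (Chemo) and 521, 311, 369.6, 672 and 495 (MC). The Lean tumors had 595, 476, 203 and 621, and the MC + Chemo tumors 381 to 1259 with a median of 552. CTRL 17 and CTRL 44 were the lowest of all 24 tumors. Its log2 fold change was 1.52 in Chemo and 1.71 ± 0.72 in MC + Chemo (SE, edgeR adjusted p = 0.276 and 0.164). The same pair of controls was lowest for human MMP15, with 15.5, 185, 25.9 and 171 (CTRL), 196, 246, 355, 213 and 181 (Chemo) and 101, 258, 169, 155 and 201 (MC), and the log2 fold change of MMP15 in Chemo was 1.25 ± 0.49 (SE, edgeR adjusted p = 0.190). It was also lowest for ADAMTS9, with 53.8, 1528, 127 and 1226 in CTRL, whose log2 fold changes were 0.70 in Chemo, 0.50 in MC and 0.58 in MC + Chemo. Human ADAMTS1 had 365, 36.8, 81.1 and 169 (CTRL), 63.4, 30.2, 37.3, 81.7 and 97.9 (Chemo) and 66.3, 87.1, 141, 67.02 and 79.2 (MC), and its log2 fold change in Chemo was -1.40 ± 0.52 (SE, edgeR adjusted p = 0.172), -0.65 without CTRL 17 and -1.72 (edgeR adjusted p = 0.0355) without CTRL 31. Without CTRL 31 the Chemo values of MMP15 and human MMP24 were 1.71 and 1.96 (edgeR adjusted p = 0.0464 and 0.0333). In that fit 7.01% of all human genes were called, and neither gene was called in Chemo when any other single library was left out. Over the fits without 1 library, human MMP24 in Chemo ran from 1.04 to 1.96, with edgeR adjusted p of 0.0333 to 0.476. Without CTRL 17 the Chemo value of ADAMTS9 was 0.31.

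MMP1, the interstitial collagenase, had a named human row and no named murine one. It was printed outside the rule that chose members for values by library, which is given under data processing. Its normalized counts were 614, 71.5, 165 and 91.9 (CTRL), 93.5, 66.1, 84.8, 78.3 and 120 (Chemo) and 67.7, 160, 264, 151 and 240.2 (MC). The range over MC + Chemo was 32.1 to 469.7 with a median of 188, and Lean had 209, 115, 653 and 45.5. Lean 24 and CTRL 17 held the highest values of the 24 tumors, and the groups overlapped. In Chemo the log2 fold change of MMP1 was -1.42 ± 0.62 (SE), with an edgeR adjusted p of 0.232, and it was -0.32 without CTRL 17.

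The abundant matrix proteases had smaller differences. Human MMP14 had 2258, 1698, 6424 and 1394 (CTRL), 1185, 1483, 2689, 1696 and 2064 (Chemo) and 2689, 1992, 1799, 2252 and 2808 (MC). The MC + Chemo values were 1082 to 3537 with a median of 1739, and those of Lean 2972, 1965, 4447 and 2535. Its groups overlapped, with log2 fold changes of -0.71, -0.36 and -0.59 in Chemo, MC and MC + Chemo, the Chemo value becoming 0.032 without CTRL 44. Murine Mmp14 had 4151, 3386, 3161 and 3606 (CTRL), 2379, 3314, 1504, 3404 and 4037 (Chemo) and 5218, 1517, 4629.6, 3600.5 and 4181 (MC). The MC + Chemo libraries ran from 1686 to 4282 with a median of 3884, and Lean libraries had 4552, 2943, 3734 and 3788. The lowest library of each treatment lay below CTRL while the ranges overlapped, and its log2 fold changes were -0.29, 0.11 and -0.079.

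Murine Mmp2 had 2694, 1574, 870.1 and 1744 (CTRL), 1735, 2435, 2165, 2735 and 2478 (Chemo) and 1476, 1021, 1845, 2469 and 2175 (MC). The Lean tumors had 2412, 1978, 1702 and 2207, and the MC + Chemo tumors 1139 to 3781 with a median of 2259. Its groups overlapped, with log2 fold changes of 0.42, 0.071 and 0.39. Adamts2 had 1295, 1874, 691 and 1620 (CTRL), 912, 1685, 1057, 1806 and 1529 (Chemo) and 1011, 622, 1904, 1801 and 2002 (MC). The range over MC + Chemo was 978 to 1732 with a median of 1439, and Lean had 1759.9, 1659, 1112 and 1623. Its groups overlapped as well, and its log2 fold changes were 0.026, 0.11 and 0.032, beside 0.39, 0.0045 and 0.38 for Adamts5. Human ADAMTS15, another aggrecan-cleaving protease, had 78.4, 145, 93.2 and 114 in CTRL and 241, 133, 121, 132 and 195 in MC, a log2 fold change that was 0.60 ± 0.26 (SE, edgeR adjusted p = 0.449).

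No TIMP passed the test in either genome. Human TIMP1 had 3697, 2076, 5876 and 1945 (CTRL), 1969.8, 1916, 1589.7, 1682 and 2176 (Chemo) and 3206, 3183, 2210.4, 2226 and 3180.2 (MC). The MC + Chemo values were 1985 to 5195 with a median of 2771, and those of Lean 2692, 1721, 5138 and 2138. In Chemo 3 of 5 tumors were below all CTRL tumors, the log2 fold change was -0.88 ± 0.29 (SE, edgeR adjusted p = 0.135, exact permutation p = 0.0476), and leaving out 1 library moved it from -1.07 (without CTRL 70, edgeR adjusted p 0.0414) to -0.46 (without CTRL 44). Without both CTRL 17 and CTRL 44 it was -0.12. Murine Timp1 had 1696, 615, 1313 and 931 in CTRL and 978, 551, 418, 433 and 1143 in Chemo, and its log2 fold change there was -0.69.

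Human TIMP2 had 8812, 5399.6, 5594 and 6418 (CTRL), 5342, 5561, 3538, 5949 and 6747 (Chemo) and 5016, 6584, 6049, 5983 and 6913 (MC). The MC + Chemo libraries ran from 5732 to 7380.3 with a median of 6516, and Lean libraries had 5990.3, 5264, 5217 and 5932. Its groups overlapped, and its log2 fold changes were -0.29, -0.11 and -0.011 for Chemo, MC and MC + Chemo. Murine Timp2 had 9614, 7751, 4836 and 5685 (CTRL), 5359.9, 8410.2, 11079.7, 8467 and 6044 (Chemo) and 5496, 5959.5, 8656, 8936 and 7331 (MC). The Lean tumors had 8122, 8773, 5041 and 7549, and the MC + Chemo tumors 4954 to 9038 with a median of 6626. Its log2 fold changes were 0.17, 0.071 and -0.038, again with overlapping groups.

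Timp3 had 1589, 4227, 5182 and 3838 (CTRL), 2674, 5215, 4026, 4909 and 4638 (Chemo) and 5869, 3656, 5092, 4108 and 4099 (MC). The range over MC + Chemo was 1637 to 4416 with a median of 3697, and Lean had 4073, 3964, 3252 and 4539.5. Its lowest libraries were CTRL 17 and one of MC + Chemo, its groups overlapped, and its log2 fold changes were 0.21, 0.32 and -0.10.

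Timp4, the TIMP known from heart, muscle and fat, was low and uneven. It had 0, 11.6, 1.28 and 12.6 (CTRL), 1.20, 6.98, 19.2, 20.3 and 0.950 (Chemo) and 61.9, 175, 1.79, 12.9 and 10.4 (MC). The MC + Chemo values were 0 to 239 with a median of 28.9, and those of Lean 11.7, 21.5, 5.75 and 0. The highest values were those of MC + Chemo 52, MC 41 and MC 6. Summed adipocyte markers were also highest in these libraries (111907, 88609 and 28740), and their part in the Timp4 values was not tested. Its log2 fold change was 2.91 ± 1.37 in MC and 3.04 ± 1.35 in MC + Chemo (SE, edgeR adjusted p = 0.416 and 0.370). It was 1.54 without MC 41 and 1.64 without MC + Chemo 52, and in MC + Chemo it was -0.085 without MC 41, MC 48 and MC + Chemo 5, 43 and 52, the libraries in which skeletal muscle markers summed to at least 9657 or adipocyte markers to at least 88609 (MC 6 stayed in). Human TIMP4, at 0 to 16.8 normalized counts per library, was below the filter and was not tested by edgeR.

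**Figure D5:**
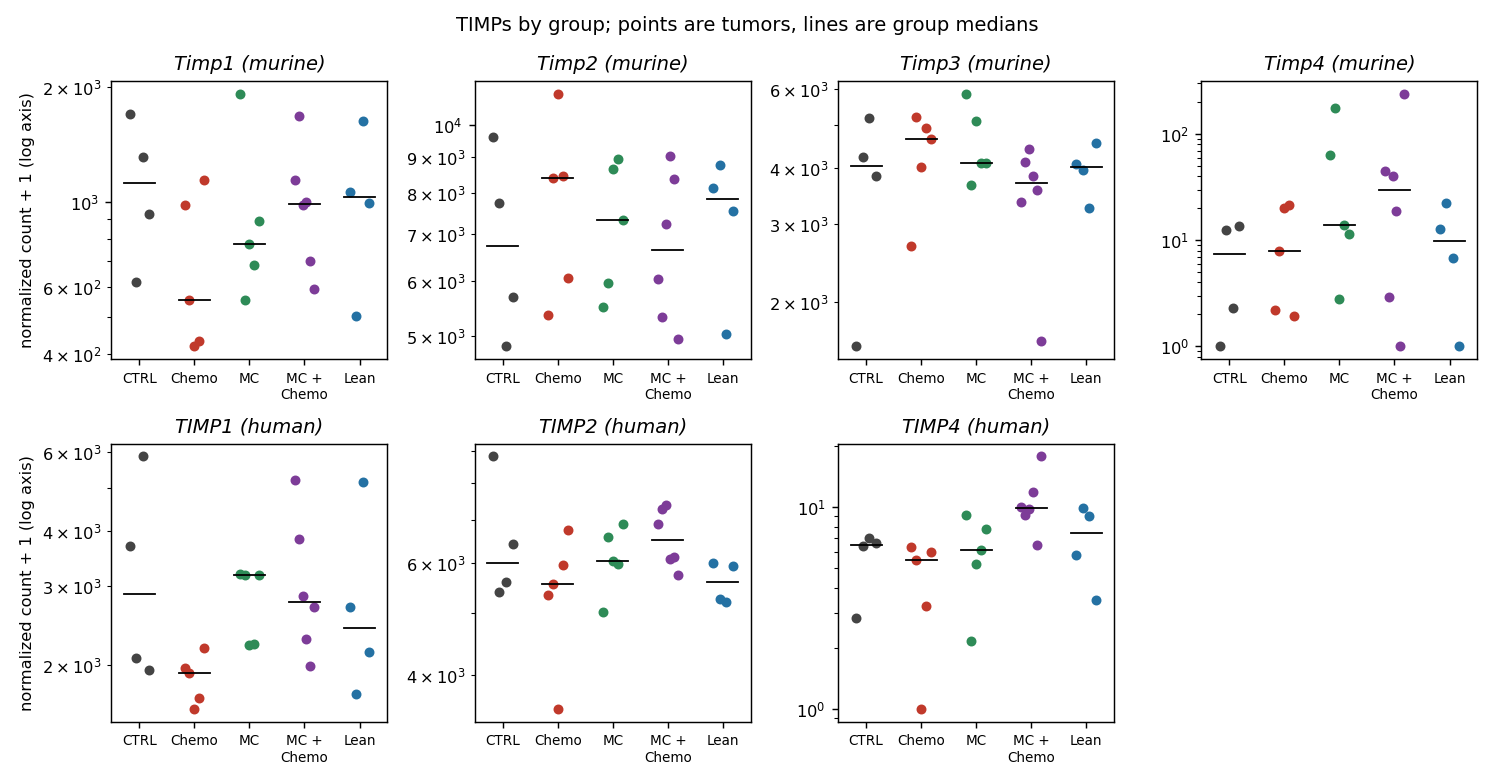
Normalized count + 1 on a log axis for murine Timp1 to Timp4 and human TIMP1, TIMP2 and TIMP4 by group. Points are tumors and lines are group medians, and the Timp4 points of MC + Chemo 52 (239) and MC 41 (175) lie far above the CTRL tumors (0 to 12.6).

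What MC adds to chemotherapy was asked by setting MC + Chemo against Chemo. What chemotherapy adds to MC was asked by setting MC + Chemo against MC. No member was called in either genome, and no other gene was (0% in each) by edgeR. At an unadjusted edgeR p under 0.05, 4 of 35 murine members differed from Chemo (11% of all genes) and 2 from MC (9.87%), and 2 of 25 human members differed from Chemo (10.4%) and 1 from MC (7.95%), and DESeq2 called 0 murine members against Chemo (0.126% of genes) or MC (0.0785%) and 0 human members (0.0371% and 0.0265%). Against Chemo, the human TIMP1 log2 difference was 0.75 ± 0.27 (SE, edgeR adjusted p = 0.359) and the murine Timp4 difference 2.50 ± 1.19 (0.452). Adamts10, a fibrillin-binding protease, had -0.75 ± 0.24 (SE, edgeR adjusted p = 0.283), with 137, 108, 199.7, 159 and 68.4 in Chemo and 52.8 to 108 with a median of 78.5 in MC + Chemo. Against MC, human ADAMTS6 had -0.82 ± 0.36 (SE, edgeR adjusted p = 0.606).

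Lean tumors had no intervention and a lean diet, so diet and saline treatment cannot be told apart in their comparison with CTRL. Beside MMP13, human MMP2 had 42.8, 56.3, 32.8 and 87.0 in CTRL and 143, 46.8, 226 and 175 in Lean, a log2 fold change that was 1.42 ± 0.60 (SE, edgeR adjusted p = 0.685). The ranges overlapped, since the tumor Lean 21 was inside the CTRL range. In the murine table Mmp9 had -1.33 ± 0.92 and Mmp3 -0.84 ± 0.48 (SE, edgeR adjusted p = 1.00 and 1.00), which were 0.80 and 0.35 without CTRL 17.

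Host and tumor responses were compared directly for the 29 namesakes, in a model with each tumor as a block and its murine and human counts as separate columns. No namesake passed an adjusted p of 0.05 by edgeR in Chemo, MC, MC + Chemo or Lean, and neither did any of the 11227 symbols tested in the treatments. At an unadjusted edgeR p under 0.05 the number was 5 of 29 in Chemo (9.33% of all symbols), 2 in MC (9.6%), 9 for MC + Chemo (11.2%) and 1 for Lean (4.03%). For MMP13 the human minus the murine log2 fold change was 2.48 ± 0.78 in Chemo, 2.58 ± 0.78 in MC, 2.09 ± 0.76 for MC + Chemo and 2.04 ± 0.84 for Lean (SE, edgeR adjusted p = 0.374, 0.477, 0.318 and 0.972). Without CTRL 17 and CTRL 44 it was 1.36 in Chemo and 1.46 in MC. The values come from this joint model and so are not exact differences of the separate fits.

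The other namesakes with the lowest p in Chemo were MMP15 (1.42 ± 0.52, edgeR adjusted p = 0.385) and ADAMTS1 (-1.42 ± 0.56, 0.433). Murine Mmp15 had 3.84, 43.4, 25.6 and 52.8 in CTRL and 16.8, 39.5, 27.2, 34.2 and 38.0 in Chemo, and murine Adamts1 399, 847, 375 and 865 and 517, 834, 427, 927 and 1061, beside the human values above. The ADAMTS1 difference was -0.71 without CTRL 17, -0.32 without CTRL 17 and CTRL 44, and -2.06 without CTRL 31.

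In MC they were ADAMTS17, a protease linked to connective tissue and eye disease (-2.42 ± 0.97, edgeR adjusted p = 0.507), and MMP3 (-0.89, 0.533). Human ADAMTS17 was low, with 9.11, 7.58, 12.9 and 8.42 in CTRL and 5.41, 2.35, 2.43, 1.03 and 2.73 in MC, and so was murine Adamts17, with 0.960, 10.6, 5.13 and 8.80 and 11.1, 6.35, 8.94, 9.47 and 11.7. The ADAMTS17 difference was -1.51 without CTRL 17 and CTRL 44. Human MMP3 had 34.6, 6.50, 2.59 and 10.5 in CTRL, 4.06, 0, 6.07, 4.12 and 2.73 in MC and at most 8.98 in a library of MC + Chemo, so the MMP3 differences rest on few human counts. That of MC + Chemo was -1.22 ± 0.42 (edgeR adjusted p = 0.283).

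The further namesakes in MC + Chemo were ADAMTS9 (1.05 ± 0.34, edgeR adjusted p = 0.269) and ADAMTS5 (-0.84 ± 0.29, 0.294). Human ADAMTS9 ran from 814 to 1649 with a median of 1023 in MC + Chemo, and murine Adamts9 had 18.2, 261, 85.9 and 328 in CTRL and 67.8 to 319 with a median of 163 in MC + Chemo. Its difference was 0.70 without CTRL 44 and 0.57 without CTRL 17 and CTRL 44. Human ADAMTS5 had 110.3, 97.4, 15.5 and 63.8 in CTRL and 16.3 to 88.0 with a median of 51.3 in MC + Chemo, and murine Adamts5 1021, 877, 438 and 797 and 371 to 1501 with a median of 1106.

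Other genes of matrix proteolysis gave little more in the host. A list of ADAM proteases, plasminogen activators and their inhibitors, cathepsins, lysyl oxidases and matrix substrates had 54 murine members, of which 52 were tested and 0 called by edgeR in Chemo, MC, MC + Chemo or Lean by the 3 criteria. At an unadjusted p under 0.05 they numbered 1, 2, 2 and 1 (1.92%, 3.85%, 3.85% and 1.92% of the list), below the 4.53%, 11.8%, 12.4% and 3.11% of all murine genes. St14 (matriptase) had the lowest p in Chemo, with a log2 fold change that was 1.61 ± 0.41 (SE, edgeR adjusted p = 0.599). Of the human genes 53 were tested and 2 called, both higher in MC + Chemo (3.77% of the list, 1.6% of all genes). BSG, an inducer of MMP synthesis, rose by 0.73 ± 0.15 on the log2 scale (SE, edgeR adjusted p = 0.0305), and PLAUR, the urokinase receptor, by 0.74 ± 0.18 (0.0415). Both calls were lost when CTRL 17, CTRL 44, MC + Chemo 47 or MC + Chemo 52 was left out, as no human gene was then called in MC + Chemo (0%). At an unadjusted p under 0.05 the human genes of the list numbered 20 in Chemo, 10 higher and 10 lower (37.7%, against 18.2% of all human genes), 7 in MC (13.2% against 10.7%), 17 for MC + Chemo (32.1% against 22.7%) and 10 for Lean (18.9% against 7.08%). In Chemo the lowest p belonged to HTRA1, a secreted serine protease, at -2.16 ± 0.47, and LOXL1, a matrix cross-linking oxidase, at -0.96 ± 0.22 (SE, edgeR adjusted p = 0.0764 and 0.0764).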

How the data were processed

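RNA of 24 xenograft tumors was sequenced as 3′ libraries, and counts per gene were made by the authors through the BlueBee platform and deposited as 1 murine and 1 human table of raw counts with, for each, a table of normalized counts (a signal scale) that the authors obtained by dividing counts by DESeq2 size factors. The submitters' processing notes name DESeq2 1.22.2 and GRCm38, and the human build and the handling of reads that match both genomes are not given in the sources used here. Each deposited normalized value times its library's size factor gave back the count for 100% of values in both tables, and the lowest gene total was 72 in each, so genes below that total are not analysed here. No deposited column held a comparison of groups. Columns were matched to mice by number. The title of MC + Chemo 5 and its group field disagree, and the title was used.

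Raw counts were tested with edgeR 4.0.16 (limma 3.58.1, R 4.3.3): TMM scaling, filterByExpr, glmQLFit and glmQLFTest with Benjamini-Hochberg adjustment over all genes tested of a genome, after a test on simulated data. Murine totals had a median of 5605294.5 counts and human totals of 10071796.5, and their number limits how small a difference in low genes can be seen. Chemo, MC and MC + Chemo were compared in 1 fit of 20 libraries and Lean in a fit of 24. Calls needed an adjusted p under 0.05, a mean normalized count above 30 and a fold change above 1.5. That mean and the overlap of groups used median-ratio size factors computed anew from the raw counts. Named members also had an exact permutation test of log2(normalized count + 1), 148 tests in all, given unadjusted. Members named for a low edgeR p in the same comparison gain no independent check from it. Host and tumor responses were tested on namesakes with the tumor as a block. DESeq2 1.42.0, RLE scaling, no filter, 2-group fits, MC + Chemo 5 read as MC, limma on per-tumor differences, a pseudocount of 10 and leaving out libraries were alternatives. Tables were handled in Python 3.11.15 with numpy 2.4.6 and pandas 2.3.3, and figures drawn with matplotlib 3.10.9. Each library is a different mouse, and of 47 pairs of libraries within groups 0 were identical in either table.

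Values by library, or as the range and median of a group (for some members in the groups compared only), are given for murine Mmp8, Mmp12, Mmp13 and Mmp24, for the 6 members with the highest mean in each genome, for called members or otherwise the 3 with the lowest p in each comparison with CTRL among those with a mean above 30, for the 3 namesakes with the lowest p for unequal response in each treatment, and for TIMPs. Values of human MMP1 and murine Adamts6 are given as well, outside this rule. The members, the marker lists and the list of other matrix protease genes were chosen with earlier results of these data known.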

Additional observations from a re-analysis of the deposited data

Results flagged for a closer look

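Libraries standing apart within their group were looked for among 185 groups of named members by Dixon's ratio of gap to range. For normally distributed values the limits used mark about 1 in 20 groups, and 18 groups were marked here (9.73%). The ratio was taken on normalized counts without a log, and some members had been named for a low p against CTRL. The share marked can therefore not be set against chance. Of the 18 marked groups, 5 came from CTRL 17. In CTRL 17 the normalized count of murine Mmp3 was 5407 (425 to 1099 in the other controls), of murine Mmp9 2238 (80.7 to 258), of human ADAMTS16 698 (73.4 to 125) and of human ADAMTS6 1025 (212 to 289), while human TIMP4 was lowest at 1.82 (5.41 to 6.04).

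Human MMP9 was far above its group in CTRL 70 (578 against 1.82 to 69.1), Chemo 67 (435 against 24.7 to 63.3) and MC + Chemo 25 (2296 against 36.0 to 299), and murine Mmp9 was also highest in MC + Chemo 25 (701 against 17.6 to 223). In MC 6, murine Timp1 was 1921 (551 to 891 in the other MC tumors) and human MMP2 257 (53.4 to 101). Murine Mmp13 was lowest in MC 41 (382 against 2295 to 2867), human ADAMTS1 highest in MC 42 (141 against 66.3 to 87.1) and human MMP13 highest in MC 48 (173 against 91.0 to 109.6). Murine Mmp12 was highest in Chemo 19 (545 against 258 to 339.9), and murine Mmp8 in Lean 24 (36.4 against 14.0 to 16.8). In MC + Chemo, murine Timp4 was 239 in MC + Chemo 52 (0 to 43.5 in the others) and human MMP3 was 8.98 in MC + Chemo 5 (1.36 to 3.91).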

How the results depend on the processing

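Human ADAMTS6 in MC + Chemo was the single edgeR call among members. With DESeq2 3 human members (ADAMTS6, ADAMTS16 and MMP13) and 1 murine member (Mmp24) were called in MC + Chemo. Murine Mmp24 is not read as a host measurement separate from human MMP24. The human count in MC + Chemo was 0 when only CTRL and MC + Chemo were fitted, 0 without the 3 libraries with an extra cleanup, and 0 under both alternatives chosen after seeing the data, which left out CTRL 17 and CTRL 44 or the 5 libraries with summed skeletal muscle markers of at least 9657 or adipocyte markers of at least 88609 (MC 41, MC 48, MC + Chemo 5, 43 and 52). Leaving out 1 library gave 0 to 3 human members in MC + Chemo and 0 to 5 in Chemo, where the 5 without CTRL 31 were ADAMTS1, ADAMTS6, MMP15, MMP24 and TIMP1. Calls over all human genes moved too: without CTRL 31 they were 7.01% in Chemo and 6.94% in MC + Chemo, without CTRL 70 3.69% and 5.28%, and without CTRL 17 or CTRL 44 0% in both (0% and 1.6% with all libraries). Over all comparisons and alternatives, 207 counts of called members stayed within 1.5 times the reported count and 17 did not. The reported count was 0 in every comparison except human MC + Chemo against CTRL, so most of the 207 set 0 against 0. The count of 1 in human MC + Chemo was kept with the adjusted p alone, RLE scaling, no filter and MC + Chemo 5 read as MC. Among fits without 1 library it was kept only without MC + Chemo 25. The cause of the differences was not tested.

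Leaving out 1 library moved log2 fold changes of murine Mmp9 from -2.43 to 0.063 in MC and from -1.69 to 0.80 in Lean, of murine Mmp3 from -1.39 to 0.14 in MC and from -1.17 to 0.35 in Lean, and of human ADAMTS16 from -1.33 to 0.24 in MC, and in each case the positive value was the one without CTRL 17. Without both CTRL 17 and CTRL 44 they were 0.51 (Mmp9, Lean), 0.046 (Mmp3, Lean) and 0.059 (ADAMTS16, MC). Murine Timp4 in MC + Chemo was -0.085 without these 5 libraries, and murine Adamts17 in MC + Chemo was -0.024 in the permutation test with a pseudocount of 10. The cause was not tested.

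No paired analysis was possible because the groups share no replicate numbers. CTRL has 4 tumors, and CTRL 17 and CTRL 44 lay below CTRL 31 and CTRL 70 in human MMP7, MMP13, MMP15, MMP24 and ADAMTS9, so fold changes of these genes against CTRL depend on which controls enter, as do those of human ADAMTS1, ADAMTS6 and ADAMTS16, in which CTRL 17 was highest. Depth limits Mmp8, Timp4, murine Adamts6 and human MMP3, ADAMTS17 and TIMP4, whose counts were low.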
